A study of Mus musculus with 6 samples.

Results

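The genes described are 40 nuclear genes of the mitochondrial respiratory chain: 9 subunits of complex III, 16 subunits of complex IV, cytochrome c, 4 assembly factors of complex III and 10 of complex IV. They were taken by name from a list drawn up with earlier results of these data known, and all 40 were found among the 43074 gene names of each table. RNA was measured in the soleus, a postural hindlimb muscle rich in slow oxidative fibres, of mice labelled wild type (WT, 3 libraries) or StarD7 mKO (mKO, 3 libraries). StarD7 is a lipid transfer protein that carries phosphatidylcholine to mitochondria. The labels do not spell out mKO, and neither the age of the mice nor the promoter driving the deletion is given in the sources used here. No treatment or further allele is listed for either group. The deposited unit was TPM, a measure of transcript abundance that corrects for the length of a gene and adds up to the same total in every library. Levels can be compared between genes, and between libraries only relative to that total.

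Complex III, cytochrome bc1, takes electrons from ubiquinol and passes them to cytochrome c, a small soluble protein between the membranes. Complex IV, cytochrome c oxidase, takes them from cytochrome c, reduces oxygen to water and pumps protons. Both complexes are built from nuclear subunits around a core encoded in mitochondrial DNA (mt-Cytb in complex III, mt-Co1, mt-Co2 and mt-Co3 in complex IV), and both need assembly factors that insert heme, copper and the iron-sulphur protein but are not part of the finished enzyme. Complex IV has paired isoforms: Cox6a2, Cox7a1 and Cox8b are the heart and muscle forms of Cox6a1, Cox7a2 and Cox8a, and Cox4i2 is the form of Cox4i1 known from lung and from the mural cells of vessels.

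Promoter sequence was available for 30 of the 40 genes in a RefSeq table of mouse build GRCm38.p6, from 250 bases before to 50 after each start. The 200 bases before the start are shown for 2 pairs of isoforms and for Cox6a1, since these pairs differ in how much of each form soleus holds. Each runs 5′ to 3′ on the strand of its gene. Capitals mark motifs found wholly inside the shown bases, each searched on both strands. CAGCTG (an E-box) is marked in Cox8b, and GCGCANGCG (core of a nuclear respiratory factor 1 site) and CCGGAAG (ETS/GABP) in Cox6a1. CTANNNNTA, a pattern looser than the core of a MEF2 site since N is any base, is marked in Cox7a1 and Cox7a2. In both the middle bases include C or G, so neither is a strict MEF2 core.
Cox7a1: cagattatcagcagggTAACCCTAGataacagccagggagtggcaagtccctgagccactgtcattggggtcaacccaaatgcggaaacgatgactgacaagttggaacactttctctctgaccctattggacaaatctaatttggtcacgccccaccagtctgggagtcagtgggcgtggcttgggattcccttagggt
Cox7a2: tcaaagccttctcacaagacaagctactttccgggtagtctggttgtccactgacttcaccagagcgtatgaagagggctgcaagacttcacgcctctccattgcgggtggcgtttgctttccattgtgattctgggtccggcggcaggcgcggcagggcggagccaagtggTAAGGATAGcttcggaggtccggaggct
Cox8b: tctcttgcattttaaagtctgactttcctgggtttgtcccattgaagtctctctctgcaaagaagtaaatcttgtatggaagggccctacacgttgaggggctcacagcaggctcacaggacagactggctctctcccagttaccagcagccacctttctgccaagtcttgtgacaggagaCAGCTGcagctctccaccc
Cox8a: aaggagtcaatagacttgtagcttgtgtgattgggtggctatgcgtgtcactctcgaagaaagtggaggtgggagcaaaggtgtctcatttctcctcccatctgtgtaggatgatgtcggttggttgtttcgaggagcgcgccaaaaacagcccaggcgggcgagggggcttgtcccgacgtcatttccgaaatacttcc
Cox6a1: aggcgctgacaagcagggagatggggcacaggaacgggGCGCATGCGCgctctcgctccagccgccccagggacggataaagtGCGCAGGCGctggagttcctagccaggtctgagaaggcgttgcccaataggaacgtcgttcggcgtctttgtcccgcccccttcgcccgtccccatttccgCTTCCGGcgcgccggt
These lie at chr7:30183971-30184170 on the plus strand (Cox7a1), and on the minus strand at chr9:79759854-79760053 (Cox7a2), chr7:140900447-140900646 (Cox8b), chr19:7217617-7217816 (Cox8a) and chr5:115348959-115349158 (Cox6a1). In Cox6a1 the first run of capitals holds 2 overlapping matches of GCGCANGCG, 1 on each strand. The GC content was 67.0% in the sequence of Cox6a1, against 51.5% in Cox8b, 52.0% in Cox7a1, 53.0% in Cox8a and 57.5% in Cox7a2. Over the whole window of the table, CCGGAAG was held by 11 of the 30 promoters (8.86% of 32851 promoters in the table), GCGCANGCG by 6 (6.25%), CTANNNNTA by 5 (21.04%), CAGCTG by 2 (16.3%), TATAAA by 2 (13.6%) and AAGGTCA, a single-repeat site of the ERR receptors, by 0 (4.72%). The 11 with CCGGAAG were Bcs1l, Cox10, Cox15, Cox20, Cox6a1, Cox6b1, Cox8a, Sco1, Surf1, Uqcr11 and Uqcrh. A match is a string of letters and was not shown to be bound.

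The libraries held between 42928382 and 51287715 recovered reads. Fold changes below are mKO minus WT in log2(TPM + 1), with their standard error (SE), and adjusted p-values are from limma over all tested genes. Stard7 was at 87.5, 95.37 and 94.99 TPM in WT and at 21.8, 21.3 and 34.6 TPM in mKO, a log2 fold change of -1.83 (limma, adjusted p = 0.00585), which was not past the threshold without WT replicate 2 (adjusted p = 0.0703). Genes of the mitochondrial genome took 42.1% to 45.1% of all TPM in WT and 46.9% to 48.9% in mKO. Because TPM has a fixed sum, this shift alone changes the TPM of nuclear genes. Values with these genes left out are given below for the roles of the 40 genes and for some of the other lists. Of 9 skeletal muscle markers 5 were lower in every mKO library than in any WT library (10.3% of all genes). The 9 summed to 82205 to 88867 TPM in WT and 69230 to 70601 TPM in mKO. Among them Myh1, the myosin of fast IIx fibres, was at 3409, 3109 and 2505 TPM in WT and at 113, 82.7 and 635 TPM in mKO (limma adjusted p = 0.0515 in the main fit). Myh7 and Tnnt1, genes of slow fibres, had log2 fold changes of 0.24 and 0.23 with overlapping groups. None of the 9 was called by limma-trend in the main fit, and 2 were by limma-voom. Ckm, Tnnt3, Myh1 and Myh4 each passed the threshold at some other setting. Markers of adipocytes summed to 32.55 to 62.45 TPM in WT and 30.87 to 44.28 TPM in mKO, with Ucp1 at 0 in 5 libraries. Those of cardiac muscle summed to 9.108 to 11.83 TPM and 9.205 to 15.54 TPM, with Nppa at 0 in all 6. Endothelial markers were apart as a sum, at 224.4 to 231.3 TPM in WT and 213.3 to 219.2 TPM in mKO, with 0 of 6 called. With mitochondrially encoded genes left out, 0 of these 6 had every mKO library below WT and 2 had every one above (2.71% and 23.9% of all genes). On that scale 5 of the 9 skeletal muscle markers still had every mKO library below WT. The 5 macrophage markers all had log2 fold changes above 0, with 0 called and sums of 40.27 to 47.98 TPM and 37.04 to 62.94 TPM. In bulk tissue, fewer cells of a type and less RNA per cell cannot be told apart, and the part of these differences in the results below was not tested.

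All 40 genes passed the filter for testing, which asked for 1 TPM in 3 or more libraries, and none of the 40 passed the adjusted threshold of 0.05 in limma, by which 0.52% of the 12301 tested genes were called. With limma-voom on recovered reads, 0 of 39 members passed as well (0.821% of 11204 genes). At an unadjusted p under 0.05, 12 members were lower in mKO, against 6.9% of all genes, and 1 was higher, against 3.76%. The number lower was 0 with mitochondrially encoded genes left out, 7 with median of ratios scaling and 3 with limma-voom. The share of all genes at this p was not computed under those settings. These 12 were all subunits, 6 of complex III and 6 of complex IV, and the higher one was the assembly factor Cox19. In 17 members every mKO library was below every WT library (42.5% of members, 10.3% of all genes), and in 1 every mKO library was above (2.5%, against 5.67%).

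The differences were small and mostly of the same sign. The log2 fold change was below 0 in 38 of 40 members (55.1% of all genes), including all 25 subunits, and the median over the 40 was -0.09, against -0.01 over all genes. By role the median was -0.13 for complex III subunits, -0.12 for complex IV subunits, -0.04 for complex III assembly factors and -0.06 for complex IV assembly factors. The counts below 0 were the same with median of ratios scaling (38 of 40 members, all 25 subunits), but not with mitochondrially encoded genes left out. When TPM was rescaled without the mitochondrially encoded genes, the median of all genes moved to 0.09, only 13 of 25 subunits and 15 of 40 members stayed below 0, and the role medians became -0.01, 0.00099, 0.08 and 0.05. On that scale 0 members had every mKO library below WT (2.71% of genes) and 6 had every mKO library above it (23.9% of genes). Scaled by the median of ratios, 12 members had all mKO libraries below WT (9.36% of genes) and 1 above (7.75%). On each of the 3 scalings both subunit medians and both assembly factor medians lay below the median of all genes.

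**Figure D1:**
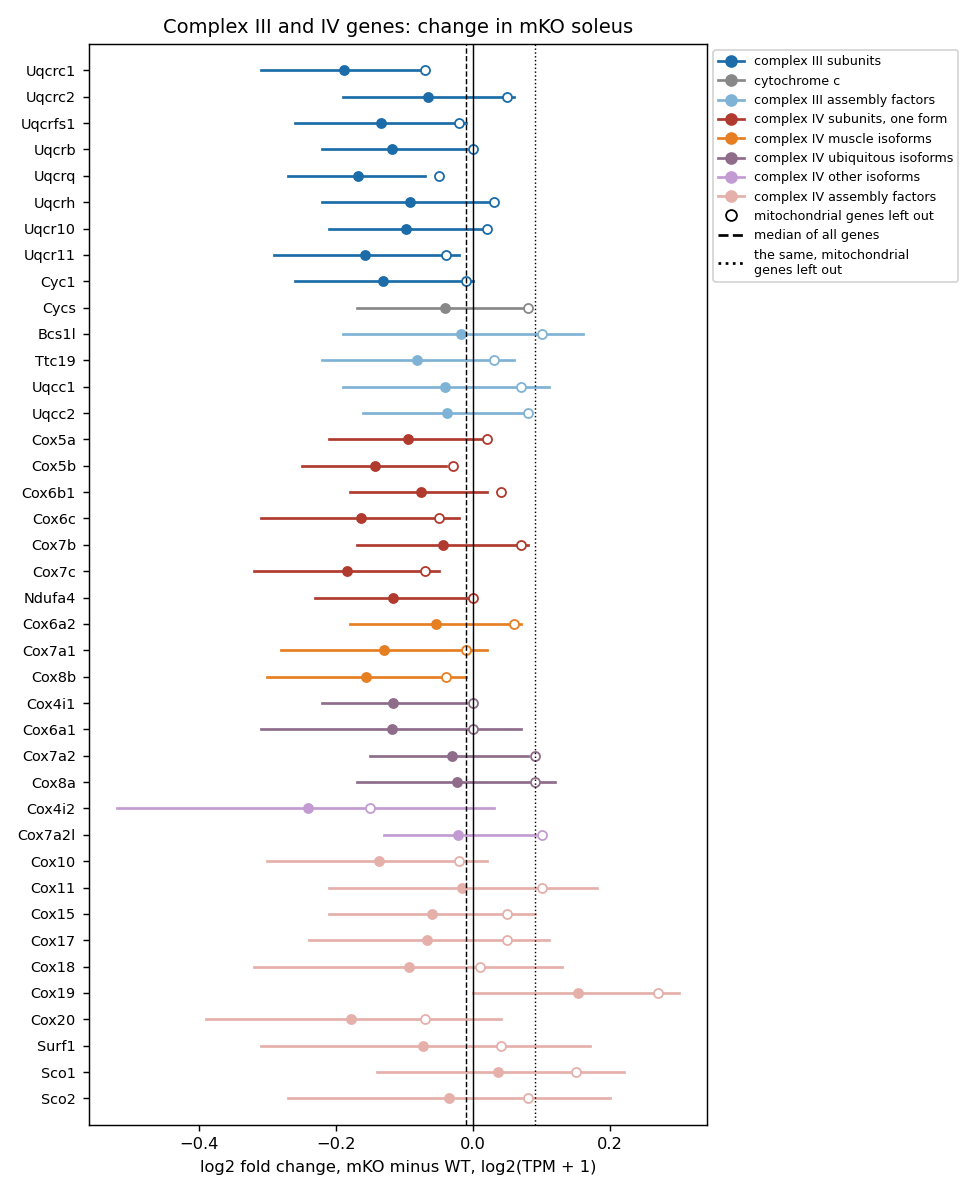
Log2 fold change (mKO minus WT, log2(TPM + 1)) of each of the 40 genes, grouped by colour into roles. Filled points with bars are the change on the deposited scale with its 95% interval, open points the change with mitochondrially encoded genes left out, and the vertical lines the median of all genes on each scale (-0.01 dashed, 0.09 dotted). Filled points lie below 0 for all genes but Cox19 and Sco1, and open points lie to the right of the filled ones.

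Complex III subunits were expressed at like levels. Their WT means ran from 356.2 TPM (Uqcrq) to 730.2 TPM (Uqcrfs1), and their sum was 4777 ± 114.5 TPM in WT and 4377 ± 20.97 TPM in mKO (SD, n = 3), or 91.6% of WT. Every one of the 9 had a log2 fold change below 0, between -0.19 and -0.07, and in 7 the groups did not overlap with mKO lower (10.3% of all genes). With mitochondrially encoded genes left out, 6 were below 0 and 0 were apart (of all genes 2.71% lower and 23.9% higher).

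The largest difference in complex III was in Uqcrc1, a core protein on the matrix side. It was at 462.3, 495.8 and 510.1 TPM in WT and 434.1, 417.8 and 435.5 TPM in mKO, so all mKO libraries were below the lowest WT library. Its log2 fold change was -0.19 (SE 0.05, 95% interval -0.31 to -0.07, limma adjusted p = 0.237). Uqcrq, a small subunit beside cytochrome b, had the lowest adjusted p of the 40 genes, 0.207, with a log2 fold change of -0.17 (SE 0.04). Its values were 349.5, 364.1 and 354.9 TPM in WT and 319.0, 321.3 and 310.0 TPM in mKO, again without overlap, the SDs being 7.38 and 5.95 TPM.

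Uqcrfs1, the Rieske iron-sulphur protein and the last catalytic subunit to be inserted, was the most abundant complex III transcript, at 709.7, 724.2 and 756.8 TPM in WT and 672.6, 628.0 and 696.1 TPM in mKO. Its log2 fold change was -0.13 (SE 0.06, adjusted p = 0.442). Uqcr10, a small subunit near the Rieske protein and cytochrome c1, came next in level with 660.2, 701.3 and 653.3 TPM in WT and 625.2, 643.7 and 612.9 TPM in mKO (log2 fold change -0.10, SE 0.05, adjusted p = 0.552). In both the groups were apart, by a margin smaller than the spread within a group. Cyc1, which is cytochrome c1 and hands electrons to cytochrome c, averaged 499.8 ± 30.2 TPM in WT and 455.8 ± 7.93 TPM in mKO (log2 fold change -0.13). Uqcr11 (516.1 TPM in WT, log2 fold change -0.16) and Uqcrb, which binds next to the quinone site (538.4 TPM, log2 fold change -0.12), had no overlap either. The 2 subunits whose groups overlapped were Uqcrc2, the other core protein (531.9 TPM, log2 fold change -0.07), and Uqcrh, the hinge protein that docks cytochrome c (443.6 TPM, log2 fold change -0.09). With mitochondrially encoded genes left out the log2 fold changes were -0.07 for Uqcrc1, -0.05 for Uqcrq, -0.04 for Uqcr11, -0.02 for Uqcrfs1 and -0.01 for Cyc1.

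Cycs, cytochrome c itself, was at 112.0, 108.6 and 119.9 TPM in WT and 107.4, 110.3 and 112.8 TPM in mKO. The groups overlapped and the log2 fold change was -0.04 (SE 0.05, 95% interval -0.17 to 0.08, adjusted p = 0.849). Its WT mean of 113.5 TPM was below that of every complex III subunit. The testis form Cyct was listed at 0 in all 6 libraries.

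Complex III assembly factors were less abundant than the subunits they serve and did not separate the groups. Their summed TPM was 4.651%, 4.426% and 4.363% of that of the 9 subunits in WT and 4.744%, 4.807% and 4.700% in mKO, so this ratio was higher in each mKO library. Uqcc2 made up most of the sum (139.9 of 213.9 TPM in WT), and the ratio without Uqcc2 was not computed. Uqcc2, which with Uqcc1 binds newly made cytochrome b, was at 143.2, 143.4 and 133.2 TPM in WT and 134.8, 141.4 and 132.7 TPM in mKO (log2 fold change -0.04, SE 0.05, adjusted p = 0.862). Uqcc1 was at 37.7, 36.1 and 38.8 TPM in WT and 38.0, 33.6 and 37.9 TPM in mKO (log2 fold change -0.04, SE 0.07, adjusted p = 0.883). Ttc19, which helps clear fragments of the Rieske protein from the complex, was at 18.83, 18.998 and 18.04 TPM in WT and 17.6, 16.8 and 18.2 TPM in mKO (log2 fold change -0.08, SE 0.06, adjusted p = 0.69). Bcs1l, the translocase that places the Rieske protein, averaged 17.8 ± 1.27 TPM in WT and 17.6 ± 1.17 TPM in mKO (log2 fold change -0.02, 95% interval -0.19 to 0.16).

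Complex IV subunits spanned a much wider range, from 7.89 TPM (Cox4i2) to 2300 TPM (Cox6a2) in WT. Their sum was 10582 ± 360 TPM in WT and 9853 ± 286 TPM in mKO, 93.1% of WT. All 16 had a log2 fold change below 0, from -0.24 to -0.02, and in 9 the groups did not overlap with mKO lower (10.3% of all genes). With mitochondrially encoded genes left out, 7 of 16 were below 0, none was apart lower (2.71% of all genes) and 3 were apart higher (23.9%). None of these changes passed the adjusted threshold.

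Among the 7 subunits that have a single form in this list, Cox6b1, which faces the intermembrane space, was the most abundant. It was at 986.6, 1012 and 1008 TPM in WT and 962.2, 944.1 and 943.9 TPM in mKO, with no overlap (log2 fold change -0.08, SE 0.04, adjusted p = 0.596). Ndufa4, once assigned to complex I and now counted as a complex IV subunit, was at 667.1, 671.3 and 655.2 TPM in WT and 619.7, 635.3 and 583.7 TPM in mKO (log2 fold change -0.12, SE 0.05, adjusted p = 0.457). All its mKO values were below the WT values.

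The largest changes among these 7 were in Cox7c and Cox6c, small membrane subunits. Cox7c was at 607.3, 661.8 and 592.4 TPM in WT and 562.4, 554.4 and 520.5 TPM in mKO (log2 fold change -0.18, SE 0.06, 95% interval -0.32 to -0.05, adjusted p = 0.302). Cox6c was at 235.5, 260.7 and 229.8 TPM in WT and 223.3, 216.5 and 207.3 TPM in mKO (log2 fold change -0.16, SE 0.06, adjusted p = 0.388). In both, WT replicate 2 was the highest library and mKO replicate 3 the lowest. Cox5b, a zinc-binding matrix subunit, averaged 518.7 ± 16.5 TPM and 469.4 ± 4.34 TPM (log2 fold change -0.14, adjusted p = 0.298) and Cox5a 496.0 and 464.3 TPM (log2 fold change -0.10), both without overlap, while the groups overlapped in Cox7b (597.7 TPM in WT, log2 fold change -0.04). The log2 fold changes were -0.07 (Cox7c), -0.05 (Cox6c) and -0.03 (Cox5b) with mitochondrially encoded genes left out. Reads of Cox5b could be shared with its pseudogene Cox5b-ps, listed at 0.577 to 2.87 TPM.

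The isoform pairs showed soleus to be dominated by the muscle forms in both genotypes. Cox6a2 was 34.1 ± 1.23 times as abundant as Cox6a1 in WT and 35.7 ± 2.67 times in mKO. Cox8b was 17.0 ± 1.03 times as abundant as Cox8a in WT and 15.5 ± 0.0750 times in mKO. Cox7a1 exceeded Cox7a2 by the smallest factor, 3.18 ± 0.142 in WT and 2.97 ± 0.0341 in mKO. Cox4i1 exceeded Cox4i2 by 111.5 ± 20.2 times in WT and 123.2 ± 11.5 times in mKO. Since both genes of a pair come from the same library, these ratios do not move with the fixed TPM sum.

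Cox6a2 was the most abundant of all 40 transcripts, at 2275, 2377 and 2248 TPM in WT and 2300, 2236 and 2111 TPM in mKO, with overlap (log2 fold change -0.05, SE 0.05, adjusted p = 0.789). Its ubiquitous partner Cox6a1 was at 64.1, 71.7 and 66.8 TPM in WT and 62.7, 68.4 and 55.9 TPM in mKO (log2 fold change -0.12, SE 0.08, adjusted p = 0.675). The share of Cox6a2 in the pair was 97.15% ± 0.0985 in WT and 97.27% ± 0.206 in mKO, which differ by 0.119 points (exact two-sided permutation p = 0.4, adjusted over 4 pairs 0.533).

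Cox7a1 was at 865.4, 1002 and 877.5 TPM in WT and 834.6, 848.6 and 819.0 TPM in mKO, all mKO values being lower (log2 fold change -0.13, SE 0.06, adjusted p = 0.542). The log2 fold change was -0.06 without WT replicate 2 and -0.01 with mitochondrially encoded genes left out. Cox7a2 was at 274.2, 300.8 and 287.6 TPM in WT and 280.7, 283.3 and 279.7 TPM in mKO, inside the WT range (log2 fold change -0.03, SE 0.05, adjusted p = 0.886). The share of Cox7a1 was 75.94%, 76.92% and 75.32% in WT and 74.83%, 74.97% and 74.54% in mKO, so the highest mKO library was below the lowest WT library. The means of 76.06% ± 0.809 and 74.78% ± 0.218 differed by -1.28 points (exact permutation p = 0.1, the smallest that 3 against 3 can give, adjusted over 4 pairs 0.2), and by -0.847 points without WT replicate 2.

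Cox8b was at 1699, 1808 and 1632 TPM in WT and 1566, 1608 and 1438 TPM in mKO, again all lower in mKO (log2 fold change -0.16, SE 0.06, adjusted p = 0.429, and -0.04 with mitochondrially encoded genes left out). Cox8a was at 95.1, 104.9 and 103.1 TPM in WT and 101.3, 103.5 and 93.4 TPM in mKO, with overlap (log2 fold change -0.02, SE 0.06, adjusted p = 0.937). The share of Cox8b was 94.70%, 94.52% and 94.06% in WT and 93.92%, 93.96% and 93.90% in mKO, also without overlap. The difference of means was -0.498 points (exact permutation p = 0.1, adjusted over 4 pairs 0.2). On the deposited scale the muscle forms Cox7a1 and Cox8b were thus lower in each mKO library than in any WT library, while Cox7a2, Cox8a and both Cox6a forms overlapped between groups. The ubiquitous Cox4i1 was also lower in each, as were 16 of the 25 subunits in all (10.3% of all genes). With mitochondrially encoded genes left out, 0 of the 3 muscle forms were apart (2.71% of all genes lower and 23.9% higher). The fast fibre marker Myh1 was also apart between these groups, and its part in the shares was not tested.

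Cox4i1, the usual form of the largest nuclear subunit, was at 838.3, 860.7 and 883.9 TPM in WT and 797.7, 781.4 and 802.6 TPM in mKO, without overlap (log2 fold change -0.12, SE 0.05, adjusted p = 0.411). Cox4i2 was at 9.49, 6.85 and 7.33 TPM in WT and 7.001, 6.530 and 5.900 TPM in mKO. It had the largest log2 fold change of the 40 genes, -0.24, with the widest interval, -0.52 to 0.03 (SE 0.12, adjusted p = 0.542), and it rested on 93 to 173 reads per library. WT replicate 1 was its highest library, and the groups overlapped. The log2 fold change was -0.12 without WT replicate 1, smaller than that of Uqcrc1 (-0.23), and -0.15 with mitochondrially encoded genes left out. The share of Cox4i2 in its pair was 0.911% ± 0.182 in WT and 0.810% ± 0.0721 in mKO, which differ by -0.101 points (exact permutation p = 0.6, adjusted over 4 pairs 0.6), which was 0.00324 points without WT replicate 1. Of 10 mural cell markers 0 were called and 3 were lower in each mKO library (10.3% of all genes). With mitochondrially encoded genes left out, 0 were lower and 1 was higher in each mKO library (2.71% and 23.9% of all genes). The 10 summed to 571.7 to 593.1 TPM in WT and 508.6 to 586.6 TPM in mKO. Their part in the level of Cox4i2 was not tested.

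**Figure D2:**
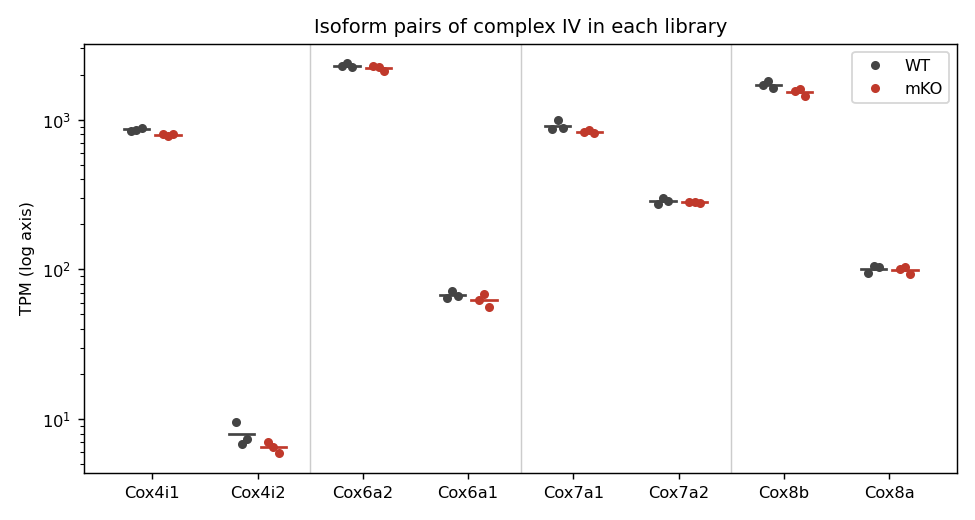
TPM of the 8 isoform genes of complex IV on a log axis, with each library as a point (WT dark, mKO red, replicates 1 to 3 from left to right) and the group mean as a line. Cox6a2, Cox7a1 and Cox8b stand above their partners in every library, and Cox4i2 is the lowest of the 8.

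Cox7a2l, a relative of the Cox7a proteins that joins complexes III and IV in supercomplexes, was at 187.1, 184.5 and 192.1 TPM in WT and 181.0, 192.1 and 182.3 TPM in mKO. The values overlapped and the log2 fold change was -0.02 (SE 0.05, 95% interval -0.13 to 0.09, adjusted p = 0.917). Of the testis or rare forms that were listed beside the 40 genes, Cox6b2 was near the limit of testing (1.26 TPM in WT, 0.942 TPM in mKO, log2 fold change -0.21, adjusted p = 0.627), Cox8c was listed at 0 and Cox7b2 was above 0 in 1 library only.

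The 10 complex IV assembly factors had WT means of 5.23 TPM (Cox18) to 44.2 TPM (Cox10). Their sum was 2.034%, 2.017% and 2.032% of that of the 16 subunits in WT and 2.054%, 2.106% and 2.138% in mKO, higher in each mKO library, as for complex III. Only Cox19, 1 of these 10 factors, had each mKO library above WT (5.67% of all genes). The ratio was not computed without it, so a shift shared by the factors is not shown. Cox10, which makes heme O on the way to the heme A of complex IV, was the one assembly factor with all mKO libraries below WT, at 41.8, 43.0 and 47.8 TPM against 41.2, 37.5 and 41.5 TPM (log2 fold change -0.14, SE 0.07, adjusted p = 0.558). Cox15, which carries out the next step to heme A, averaged 16.7 and 16.0 TPM (log2 fold change -0.06).

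Cox19, a small protein of the copper pathway, was the exception in direction. It was at 30.2, 32.9 and 31.2 TPM in WT and 33.8, 37.6 and 33.8 TPM in mKO, so each mKO library was above each WT library (log2 fold change 0.15, SE 0.06, adjusted p = 0.458). With mitochondrially encoded genes left out its log2 fold change was 0.27 (adjusted p = 0.0982), the lowest adjusted p of any member under any setting tried. Cox20, a chaperone of newly made mt-Co2, was at 27.6, 29.9 and 24.4 TPM in WT and 25.9, 24.6 and 21.6 TPM in mKO, with overlap (log2 fold change -0.18, SE 0.09, adjusted p = 0.566). The other copper factors had log2 fold changes of 0.04 (Sco1), -0.04 (Sco2), -0.02 (Cox11) and -0.07 (Cox17), with overlapping groups. Cox18, which moves a tail of mt-Co2 across the membrane, had -0.09, and Surf1, which acts early in the building of mt-Co1, had -0.07, each with an SE of 0.10. The log2 fold change was -0.02 for Cox10, -0.07 for Cox20 and 0.15 for Sco1 with mitochondrially encoded genes left out. That of Cox10 was -0.08 without WT replicate 3, and that of Cox20 was -0.11 without WT replicate 2 or without mKO replicate 3. At the precision of Surf1, a log2 fold change of -0.31 to 0.17 was within the 95% interval.

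**Figure D3:**
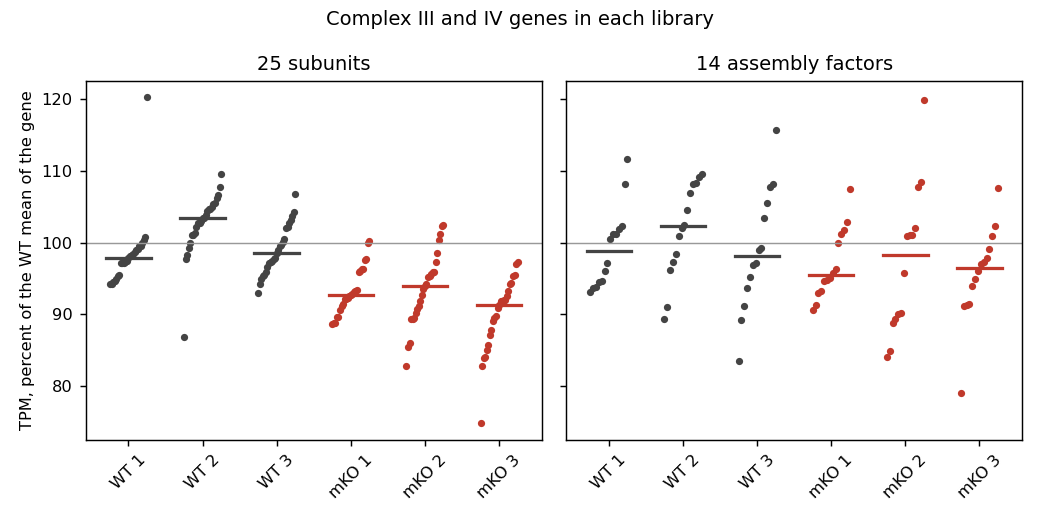
TPM of each gene as a percent of its own WT mean in every library, for the 25 subunits (left) and the 14 assembly factors (right), with WT dark, mKO red and the median as a line. The subunit medians were 97.9, 103.3 and 98.6 in WT and 92.6, 93.9 and 91.3 in mKO, and those of the assembly factors 98.8, 102.2 and 98.1 in WT and 95.4, 98.3 and 96.5 in mKO.

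The libraries did not contribute alike. As the plot of levels by library shows, the median subunit was at 97.9%, 103.3% and 98.6% of its WT mean in the WT libraries and at 92.6%, 93.9% and 91.3% in the mKO libraries. WT replicate 2 was the highest library for 25 of the 40 genes, and mKO replicate 3 the lowest for 19, of which 16 were subunits. WT replicate 2 also had the lowest mitochondrially encoded share (42.1%) and the highest sum of adipocyte markers (62.45 TPM), whose part in this was not tested. Without it, 3 members were lower at an unadjusted p under 0.05, in place of 12. The number was 5 without mKO replicate 1 and 4 without mKO replicate 3. The share of all genes at this p was not computed for these fits, nor the share of all genes highest or lowest in a given library. Calls over all genes at the adjusted threshold, 64 in the main fit, also moved. They were 4 without WT replicate 2, 13 without mKO replicate 1 and 94 without mKO replicate 3, so the smaller counts of members are not particular to them. The assembly factors overlapped between groups as sets of libraries, with medians of 98.8%, 102.2% and 98.1% in WT and 95.4%, 98.3% and 96.5% in mKO.

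The mitochondrially encoded partners lay on the other side of 0. mt-Co2 was at 55007, 51992 and 54566 TPM in WT and 64280, 59481 and 62430 TPM in mKO, with no overlap (log2 fold change 0.20, SE 0.07, 95% interval 0.04 to 0.36, adjusted p = 0.334). mt-Co3 was at 51971, 48320 and 51939 TPM in WT and 57195, 55770 and 56338 TPM in mKO, also with no overlap (log2 fold change 0.15, SE 0.07, adjusted p = 0.47). The groups overlapped in mt-Co1, the catalytic subunit, at 82328, 78326 and 87153 TPM in WT and 90452, 86650 and 90414 TPM in mKO (log2 fold change 0.11, SE 0.07, adjusted p = 0.667). They overlapped too in mt-Cytb, at 38695, 37712 and 40609 TPM in WT and 41733, 40131 and 41579 TPM in mKO (log2 fold change 0.08, SE 0.06, adjusted p = 0.74). Libraries were selected for poly(A) RNA, per the labels' protocols, and mitochondrial transcripts carry short tails, so their level also depends on that selection.

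The ratio of nuclear to mitochondrially encoded transcripts within a library is free of the fixed sum. For complex IV the summed TPM of the 16 nuclear subunits was 5.484%, 6.157% and 5.353% of that of mt-Co1, mt-Co2 and mt-Co3 in WT, and 4.725%, 4.964% and 4.552% in mKO. For complex III the 9 nuclear subunits were 12.03%, 12.94% and 11.81% of mt-Cytb in WT and 10.55%, 10.88% and 10.49% in mKO. In both complexes every mKO library was below every WT library, with means of 5.67% ± 0.431 against 4.75% ± 0.207 and of 12.3% ± 0.600 against 10.6% ± 0.210. Over all genes the same ratio of nuclear to mitochondrially encoded TPM was 130.03%, 137.5% and 121.8% in WT and 104.5%, 113.5% and 107.3% in mKO, also without overlap. The mKO mean was 83.5% of the WT mean over all genes, 83.8% for complex IV and 86.8% for complex III, so these sums show nothing particular to the subunits. No test is given for these sums, since the genes were grouped with earlier results known. How much of the difference came from each side of the ratio depends on the scaling and was not tested.

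**Figure D4:**
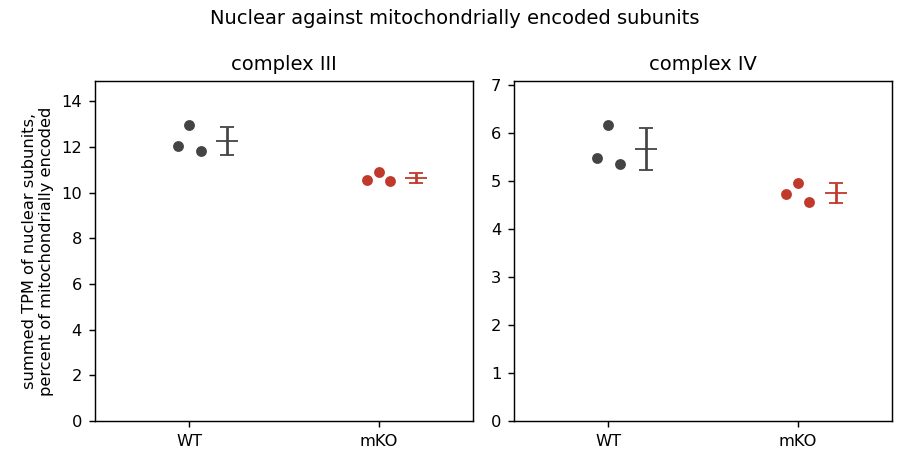
Summed TPM of the nuclear subunits as a percent of the summed TPM of the mitochondrially encoded subunits of the same complex, for complex III (left) and complex IV (right). Points are libraries and bars the mean ± SD of 3 libraries; all mKO points lie below all WT points in both panels.

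Further genes of the pathway were counted from lists of genes outside the 40. Of 9 others, listed under complex III assembly and cytochrome c genes, 0 passed the threshold, and 6 had a log2 fold change below 0. This list is loose, since it holds Tmem11, Fdx2 and Fdxr beside assembly factors. The largest in each direction were Fdxr, the ferredoxin reductase that feeds electrons to iron-sulphur cluster and heme A synthesis, and Uqcc5. Fdxr was at 7.06, 6.67 and 6.31 TPM in WT and 9.29, 9.25 and 8.21 TPM in mKO, above WT in each library (log2 fold change 0.37, SE 0.08, 95% interval 0.19 to 0.55, adjusted p = 0.119). Uqcc5, an assembly factor of complex III, averaged 9.19 and 7.98 TPM (log2 fold change -0.18, adjusted p = 0.482). With mitochondrially encoded genes left out, 3 of the 9 had a log2 fold change below 0.

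Of 20 other complex IV assembly genes, 19 were tested, 0 passed, and 15 had values lower in mKO, the median log2 fold change being -0.07. In 5 of the 20 every mKO library was below WT (10.3% of all genes) and in 2 above (5.67%). With mitochondrially encoded genes left out, 5 of 19 had a log2 fold change below 0. On that scale 1 had every mKO library below WT (2.71% of all genes) and 4 had every one above (23.9%). Coa7, a heme-binding assembly factor, had the largest difference, at 11.0, 11.6 and 10.5 TPM in WT and 9.34, 8.83 and 8.23 TPM in mKO (log2 fold change -0.29, SE 0.07, 95% interval -0.46 to -0.12, adjusted p = 0.18). Its groups were apart. Coa4, of the same family of twin cysteine proteins as other copper factors, had the largest difference upward (WT 3.85 TPM, mKO 4.52 TPM, log2 fold change 0.18, adjusted p = 0.56). Pet117 was the gene not tested, listed at 0 in all libraries.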

How the data were processed

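From soleus RNA of WT and mKO mice, 3 libraries a group were made with poly(A) selection and a directional kit, per the labels' protocols. For every library the authors deposited the TPM of each gene name. The submitters' processing notes name build GRCm39. Aligner, counter, annotation and use of strand are not given in the sources used here. Overlapping genes therefore cannot be told apart. The series design text gives n = 3 mice per group, but the labels do not tie libraries to animals, so p-values measure the spread between these samples.

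Groups came from the sample titles. Each gene was tested on log2(TPM + 1) with limma-trend and no covariate, a fold change being mKO minus WT (R 4.3.3, limma 3.58.1). The 12301 genes that reached 1 TPM in 3 or more libraries were tested, and p-values were adjusted over them by Benjamini-Hochberg, with calls at 0.05. The pseudocount understates changes of low genes. Errors of means are SDs (n = 3). Isoform shares were set against each other by an exact permutation test, two-sided (scipy 1.17.1), whose smallest p is 0.1. The members and gene lists were chosen with earlier results of these data known.

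TPM multiplied by exon length in GENCODE M21, an annotation of an older build, gave whole reads within 0.05 for 93.13% of 22729 genes in all 6 libraries, among them 39 members (not Cox17). Of recovered values 58.56% were even, so read pairs may have been counted as 2 reads in part. These reads gave the depth and the input of limma-voom, an alternative, and cover counting error only. Pairs of libraries within a group differed by more than sampling noise (18.43 to 35.19 in chi-square per degree of freedom). Each was counted as a sample, though this does not show that the libraries came from separate animals. On simulated reads of 11204 genes with 3 libraries a group, limma-trend recovered 84 of 100 genes at a log2 change of 1 and 16 of 100 at 0.3, with 3 false calls of 11004.

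Values in each library are given for the genes of the isoform pairs, for the 2 most abundant and the 2 most changed genes of every other role, for the mitochondrially encoded partners and Stard7. From the other pathway lists the gene most changed in each direction is named. Cyct, Cox7b2, Cox8c, Pet117 and Cox5b-ps fall outside this rule. Alternatives were rescaling without mitochondrially encoded genes, median of ratios scaling, other pseudocounts and filters, a replicate block, limma-voom and each library left out. Promoter sequences are from RefSeq (GRCm38.p6), since no annotation of GRCm39 was used here, and no other coordinates are given.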

Additional observations from a re-analysis of the deposited data

How the results depend on the processing

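In 559 fits of the members under 14 other settings, 0 members were called, and 23 members changed sign in 43 fits. Calls over all genes (64) were 6 with no filter, 41 with mitochondrially encoded genes left out, 21 with the replicate block and 4 to 94 with a library left out. Members lower at an unadjusted p under 0.05 (12) were 0 with mitochondrially encoded genes left out, 7 with median of ratios, 3 with limma-voom and 3 to 11 with a library left out. The share of all genes at that p, 6.9% in the main fit, was not computed for these alternatives. Subunits below 0 (25) were 13 with mitochondrially encoded genes left out, 25 with median of ratios and 23 to 25 with a library left out.

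With mitochondrially encoded genes left out, the members with groups apart were 0 below and 6 above WT (2.71% and 23.9% of all genes). On that scale the medians were -0.01 and 0.00099 for subunits of complexes III and IV and 0.08 and 0.05 for their assembly factors. With limma-voom these were -0.08, -0.06, 0.01 and -0.01. With a library left out the assembly medians were -0.06 to -0.04 and -0.07 to -0.04. The Cox4i2 share difference was -0.1618 to 0.003237 points with a library left out. The counts of groups apart under other scalings, the limma-voom medians, and all alternatives for subunits below 0 and for members lower at an unadjusted p were added after seeing the data.

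Log2 fold changes above 0 with mitochondrially encoded genes left out were Uqcrc2 0.05, Uqcrh 0.03, Uqcr10 0.02, Cycs 0.08, Bcs1l 0.1, Ttc19 0.03, Uqcc1 0.07, Uqcc2 0.08, Cox5a 0.02, Cox6b1 0.04, Cox7b 0.07, Ndufa4 0.00067, Cox6a2 0.06, Cox4i1 0.0013, Cox7a2 0.09, Cox8a 0.09, Cox7a2l 0.1, Cox11 0.1, Cox15 0.05, Cox17 0.05, Cox18 0.01, Surf1 0.04 and Sco2 0.08. With limma-voom they were Cycs 0.01, Bcs1l 0.04, Uqcc1 0.01, Uqcc2 0.01, Cox7b 0.01, Cox7a2 0.02, Cox8a 0.03, Cox7a2l 0.03, Cox11 0.04 and Sco2 0.01. With a library left out the ranges that crossed 0 were Bcs1l -0.06 to 0.03, Uqcc1 -0.07 to 0.02, Cox7a2 -0.06 to 0.0022, Cox8a -0.07 to 0.02, Cox11 -0.08 to 0.05 and Sco2 -0.09 to 0.07. The scaling itself raises nuclear genes when mitochondrially encoded ones are left out; elsewhere the cause was not tested.

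Same-numbered libraries of the groups correlated at 0.09, 0.05 and 0.13 in their deviations, so the numbers were not taken to pair them, although 6 of 6 libraries correlated best with their own number. With the replicate block 0 members were called, and the exact sign-flip p of the isoform shares was 0.5 or 0.25, the latter the smallest possible. Stard7 was not past the threshold with no filter (adjusted p = 0.0858) or without WT replicate 2 (0.0703). On simulated reads 16 of 100 genes were recovered at a log2 change of 0.3, which is larger than that of any member. Recovery at the levels and spread of the members themselves was not tested.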
